A study of Mus musculus with 6 samples.

Results

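The genes described here are 37 interferon-stimulated genes of the mouse, measured by RNA sequencing in bone. They were taken by symbol from the 54532 genes of the deposited table through the GENCODE M21 annotation, and all 37 were found. Of these, 31 are counted here as type I genes, which respond chiefly to the interferons alpha and beta, and 6 as interferon-gamma-type genes, all of them GTPases induced most strongly by interferon gamma. The study compared 3 libraries from wild-type bone with 3 libraries from MIR29cb2-/- bone, which lacks the cluster of the microRNA genes Mir29b-2 and Mir29c. All libraries were labelled as bone of female C57BL/6J mice aged 16 weeks, the knockout allele was the only labelled difference, and no agent, infection or interferon treatment is named. Neither the bone, the handling of its marrow nor the animal behind each library is named in the labels. A p-value here therefore reflects only how much these libraries vary, and some of that variation may be technical.

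Interferons are secreted proteins that bind receptors on the cell surface and switch on a shared set of antiviral genes. Type I interferons act through the kinases Jak1 and Tyk2, and a complex that holds Stat2 and Irf9 then binds the interferon-stimulated response element in promoters. Interferon gamma acts through Jak1 and Jak2, and its signal reaches promoters at the gamma-activated sequence. In bone, interferons are known to restrain osteoclast formation, and blood cells of the marrow express many of these genes without infection.

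The microRNAs of the deleted cluster are shown because their seed, bases 2 to 8 in capitals, is the part that pairs with targets. Both mature sequences come from RefSeq (GRCm38.p6, chromosome 1, plus strand).
miR-29b-3p (chr1:195037091-195037113): uAGCACCAuuugaaaucaguguu
miR-29c-3p (chr1:195037600-195037621): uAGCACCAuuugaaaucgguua
miR-29a-3p and a second gene of miR-29b-3p lie on chromosome 6 outside the deleted cluster and carry the same seed. Libraries of this kind do not measure mature microRNAs, and Mir29b-2 and Mir29c were listed at 0 in all 6 libraries. The host transcript A330023F24Rik stood at 0.136 to 0.197 FPKM in wild type and 2.51 to 4.08 FPKM in the knockout, so loss of a transcript could not be used to check the labels.

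FPKM, the unit of the table, counts sequenced fragments relative to exon length and to the size of the library. The scaling divisors recovered from the values were 16578350 to 20596651 reads per library, and every member resolved into whole reads, from 11 to 8753 in a library. A pair of libraries, wild-type replicate 2 and knockout replicate 1, differed from the rest: their FPKM values summed to 489576 and 487102, while the remaining 4 sums were 355787 to 404994, and their values were lower for long transcripts. Defining markers of bone were present in every library, with 0 of 9 osteoblast genes listed at 0. Each comparison below used limma on log2(FPKM + 1) over 13619 genes (mean FPKM 1 or more), with Benjamini-Hochberg adjustment and a threshold of 0.05. Of the 37 members 35 passed that filter, and Mx2 and Ifi44 did not.

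In knockout bone 7 of the interferon-stimulated genes fell, and most of the others had a negative change that did not pass the test. In limma 7 of the 35 tested members fell (20.0%) and 0 rose, against 3.82% of all tested genes that fell and 1.34% that rose. Leaving out 1 library gave 2 to 6 fallen members, while the genes that passed in either direction over the whole table went from 703 to between 62 and 418. At an unadjusted p under 0.05 in limma 18 of the 35 were lower and 0 higher, against 11.7% and 8.91% of all tested genes. The 7 that fell were Ifi27l2a, Ifit3, Rtp4, Ifit1, Gbp2, Lgals3bp and Usp18. The log2 change was below 0 in 34 of the 35, against 40.9% of all tested genes, and the median over all 37 was -0.46 beside 0.06 for all tested genes. All 3 knockout libraries lay below all 3 wild-type libraries in 16 of the 35 (45.7%), against 13.7% of all tested genes. Fewer cells of a type and less RNA per cell cannot be told apart in such bulk samples.

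**Figure D1:**
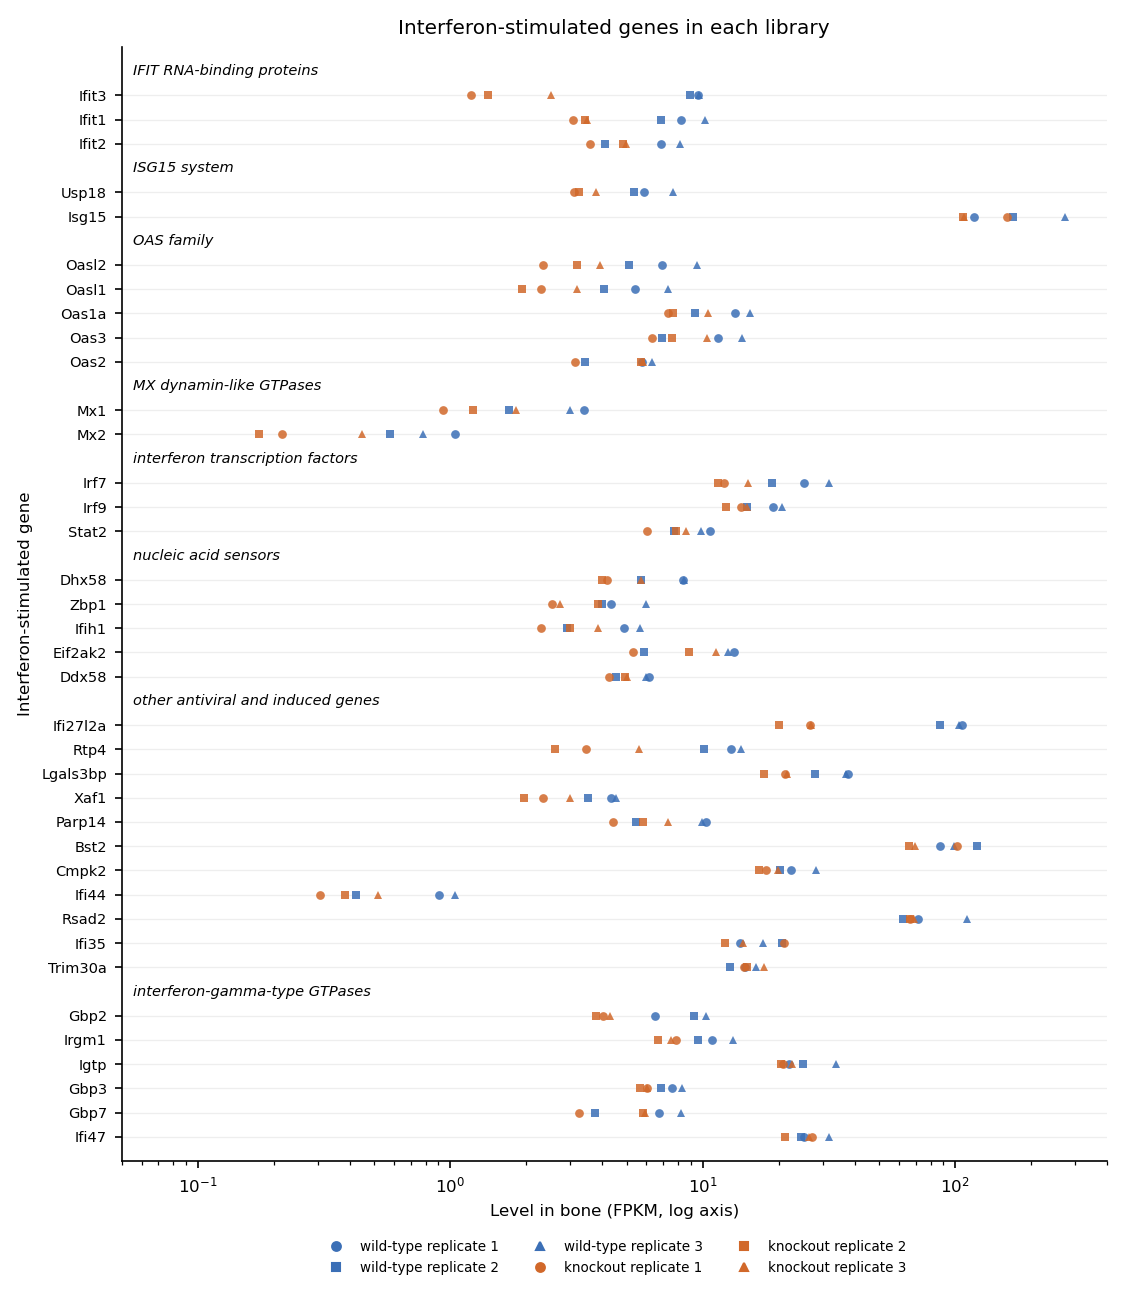
Level of each of the 37 genes in each library (FPKM, log axis), with wild type in blue, knockout in orange and a symbol for each replicate number, grouped by the role of the gene product. Ifit3 and Ifi27l2a show the widest gap between the groups. The groups overlap in 20 of the 37 genes, Oas2, Ifi35 and Trim30a among them.

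Type I and interferon-gamma-type genes are given side by side, and the difference between these classes was not tested. Among type I genes 6 of 29 tested members fell (20.7%), and the median log2 change of all 31 was -0.49. All knockout libraries lay below all wild-type libraries in 13 of the 29 (44.8%). Among interferon-gamma-type genes 1 of 6 fell (16.7%), the median was -0.31, and the knockout lay below in 3 of 6 (50%). Over all tested genes the shares were 3.82% fallen and 13.7% with the knockout below. The type I changes ranged from -1.98 to 0.10 and the interferon-gamma-type changes from -0.92 to -0.12, so both classes held genes with little change.

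**Figure D2:**
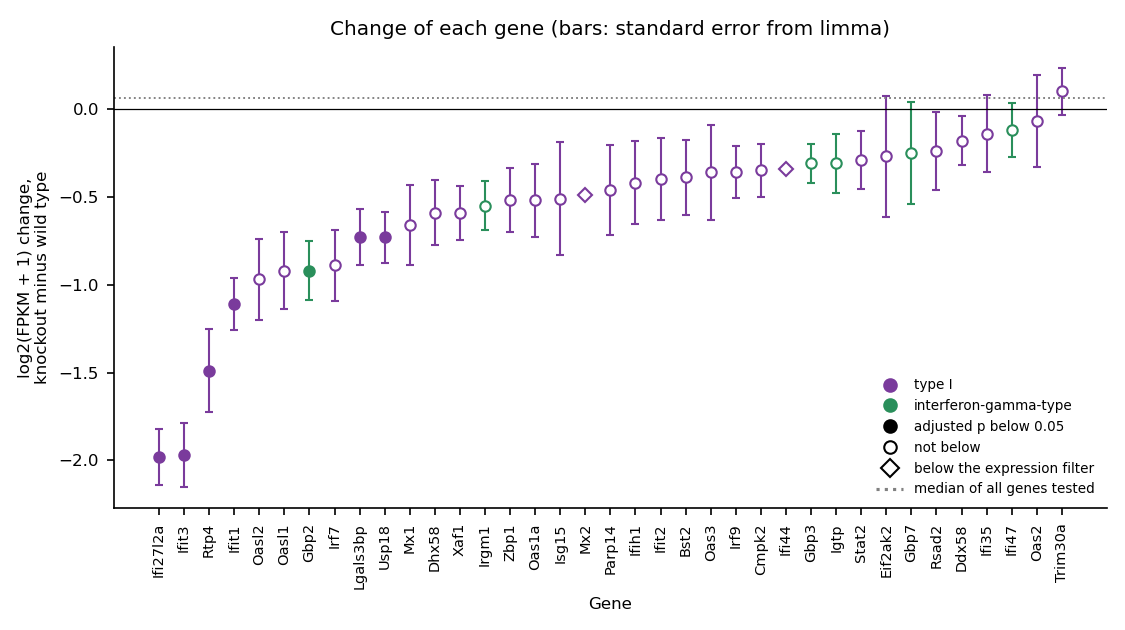
Change of each gene in knockout against wild-type bone on the log2(FPKM + 1) scale, sorted, with the standard error from limma as bars, type I genes in purple and interferon-gamma-type genes in green. Filled points passed the limma threshold (7 genes), diamonds mark the 2 genes under the expression filter, and the dotted line is the median of all tested genes at 0.06.

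The IFIT proteins bind viral RNA ends and block their translation, and 2 of the 3 IFIT genes fell. Ifit3 (ENSMUSG00000074896, chromosome 19 from 34583531 to 34588731, mm10) stood at 9.60, 8.93 and 9.72 FPKM in the wild-type libraries and at 1.21, 1.42 and 2.52 in the knockout libraries. The lowest wild-type value was far above the highest knockout value, and the wild-type libraries were nearly equal. The means were 9.41 ± 0.426 and 1.71 ± 0.703 FPKM (SD, n = 3), a 5.49-fold lower level in the knockout (log2 change -1.97 with SE 0.184, limma adjusted p = 0.00712). Behind these values stood 304 to 345 reads per wild-type library and 35 to 76 per knockout library. Ifit1 stood at 8.21, 6.87 and 10.2 FPKM in wild type and at 3.07, 3.42 and 3.50 in the knockout. Its groups did not overlap either (log2 change -1.11 with SE 0.149, limma adjusted p = 0.0162). That call was lost without wild-type replicate 1 (limma adjusted p = 0.0690), knockout replicate 1 (0.0530) or knockout replicate 2 (0.0717). Ifit2, the neighbour of Ifit3 in the same cluster, went from 6.39 ± 2.09 to 4.46 ± 0.756 FPKM (SD, n = 3) with overlapping groups, and it did not pass (limma adjusted p = 0.398). Ifit3 has a near-identical copy, Ifit3b, between which reads may be split. Ifit3b, which is not among the 37, fell as well, from 3.16, 1.97 and 2.96 FPKM to 0.121, 0.546 and 0.665 (log2 change -1.36, limma adjusted p = 0.0225). On leaving out wild-type replicate 1 or 3 its limma adjusted p was 0.0923 or 0.0591, and on leaving out knockout replicate 1 or 2 it was 0.0538 or 0.0799.

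The promoters of Ifit3 and Ifit1 are shown because both genes fell, that of Gbp2 because it was the interferon-gamma-type gene that fell, and that of Isg15 as a gene with the same motif that did not pass. Each runs from 250 bases before to 50 bases after the gene start (RefSeq, GRCm38.p6), 5′ to 3′ on the strand of the gene. Capitals mark the core of the interferon-stimulated response element on either strand, which is a pair of GAAA tetramers with any 2 bases between them.
Ifit3 (chr19:34583279-34583578, plus strand): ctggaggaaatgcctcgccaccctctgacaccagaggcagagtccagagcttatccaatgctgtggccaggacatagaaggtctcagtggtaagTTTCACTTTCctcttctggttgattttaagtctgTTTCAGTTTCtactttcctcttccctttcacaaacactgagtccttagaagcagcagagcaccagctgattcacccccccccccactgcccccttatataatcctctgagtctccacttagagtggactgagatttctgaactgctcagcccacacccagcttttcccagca
Ifit1 (chr19:34640639-34640938, plus strand): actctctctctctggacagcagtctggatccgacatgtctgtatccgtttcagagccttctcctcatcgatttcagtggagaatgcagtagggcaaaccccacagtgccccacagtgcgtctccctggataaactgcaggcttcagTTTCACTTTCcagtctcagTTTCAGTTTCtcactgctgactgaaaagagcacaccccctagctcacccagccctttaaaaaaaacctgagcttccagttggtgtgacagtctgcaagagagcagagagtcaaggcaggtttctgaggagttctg
Gbp2 (chr3:142620413-142620712, plus strand): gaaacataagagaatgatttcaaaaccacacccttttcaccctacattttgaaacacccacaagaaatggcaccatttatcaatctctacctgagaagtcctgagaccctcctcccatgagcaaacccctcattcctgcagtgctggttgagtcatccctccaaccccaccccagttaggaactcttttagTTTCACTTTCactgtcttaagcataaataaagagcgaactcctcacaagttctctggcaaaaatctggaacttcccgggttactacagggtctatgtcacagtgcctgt
Isg15 (chr4:156200769-156201068, minus strand): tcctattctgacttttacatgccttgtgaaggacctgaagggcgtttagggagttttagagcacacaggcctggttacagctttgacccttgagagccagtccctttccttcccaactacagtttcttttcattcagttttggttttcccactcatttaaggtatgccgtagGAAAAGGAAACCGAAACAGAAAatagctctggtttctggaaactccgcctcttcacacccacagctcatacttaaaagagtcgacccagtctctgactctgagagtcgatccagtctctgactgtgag
The core motif occurred at 2 places in the Ifit3 and Ifit1 windows, at 1 place in that of Gbp2, and as 3 overlapping matches in that of Isg15. The table of promoters held 28 of the 37 members. Among the type I genes with a promoter there, 12 of 22 had the core motif (54.5%), and among the interferon-gamma-type genes 5 of 6 had it (83.3%), against 3.99% of all 27025 genes in the table. The gamma-activated sequence TTCNNNGAA, which reads the same on both strands, was present in 5 of 22 type I and 2 of 6 interferon-gamma-type genes (22.7% and 33.3%), against 9.55% of all genes. Of the 4 fallen members with a promoter there 3 had the core motif, and of the other 24 members 14 had it. A match describes these letters only.

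Isg15 is a ubiquitin-like protein that is attached to other proteins, and Usp18 is the protease that removes it and also damps interferon receptor signalling. Isg15 was the most abundant member in wild type, at 119, 170 and 272 FPKM, and stood at 160, 108 and 109 FPKM in the knockout. The groups overlapped, and the difference did not pass (log2 change -0.51 with SE 0.321, limma adjusted p = 0.440). Usp18 stood at 5.88, 5.36 and 7.63 FPKM in wild type and at 3.11, 3.23 and 3.77 in the knockout. Its groups did not overlap, and it fell by 0.73 on the log2 scale (limma adjusted p = 0.0396). The Usp18 call was lost without any 1 of the 6 libraries. The limma adjusted p was 0.113, 0.0550 and 0.0837 without wild-type replicates 1, 2 and 3, and 0.110, 0.152 and 0.0762 without knockout replicates 1, 2 and 3.

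The OAS proteins sense viral RNA and make the oligoadenylates that activate RNase L, and the family includes the OAS-like genes Oasl1 and Oasl2. In this family 0 of 5 genes passed, although the groups did not overlap for both OAS-like genes. Oasl2 stood at 6.92, 5.12 and 9.49 FPKM in wild type and at 2.33, 3.17 and 3.91 in the knockout (log2 change -0.97, limma adjusted p = 0.0618). Oasl1, which also restrains the translation of Irf7, stood at 5.40, 4.09 and 7.33 FPKM in wild type and at 2.29, 1.92 and 3.19 in the knockout (log2 change -0.92, limma adjusted p = 0.0609). Changes were smaller for the rest of the family. Oas1a had a log2 change of -0.52, and Oas3 of -0.36, both with overlapping groups. Oas2 stood at 5.75, 3.44 and 6.30 FPKM in wild type and at 3.12, 5.69 and 5.82 in the knockout, with wild-type replicate 2 and knockout replicate 1 both low. Its log2 change was -0.07 (limma adjusted p = 0.914) and turned positive without wild-type replicate 1 (0.01), wild-type replicate 3 (0.06) or knockout replicate 1 (0.16). Reads of Oas1a may be shared with its close paralogs.

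Mx1 and Mx2 encode dynamin-like GTPases that trap viral nucleocapsids, and both were scarce. C57BL/6 mice are known to carry a defective Mx1 gene, which can still be transcribed. Mx2 stood at 1.05, 0.581 and 0.782 FPKM in wild type and at 0.217, 0.175 and 0.448 in the knockout, from 11 to 78 reads per library. Its groups did not overlap, and an exact permutation test (two-sided) gave p = 0.1, the smallest that 3 against 3 libraries allow. Mx1 went from 2.70 ± 0.875 to 1.33 ± 0.447 FPKM (SD, n = 3) with overlapping groups and did not pass (limma adjusted p = 0.159).

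The factors Irf7, Irf9 and Stat2 carry the type I signal to promoters, Irf7 as the amplifier of interferon production and Irf9 with Stat2 as part of the complex that binds the response element. None of the 3 passed the limma threshold over all genes, and 2 were lower at an unadjusted p under 0.05 (11.7% of all tested genes). Irf7 stood at 25.2, 18.8 and 31.7 FPKM in wild type and at 12.2, 11.5 and 15.1 in the knockout. The groups did not overlap, and the means differed 1.95-fold (log2 change -0.89, limma adjusted p = 0.0560). Without wild-type replicate 2 its limma adjusted p was 0.0435, and without any other single library it was 0.0869 to 0.191. Irf9 and Stat2 had log2 changes of -0.36 and -0.29 with overlapping groups.

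The sensors of foreign nucleic acid had a median log2 change of -0.42. Ddx58 (RIG-I), Ifih1 (MDA5) and Dhx58 (LGP2) are helicases that detect viral RNA, Zbp1 detects Z-form nucleic acid and Eif2ak2 (PKR) halts translation. In limma 0 of the 5 passed, 2 were lower at an unadjusted p under 0.05 (11.7% of all tested genes), and the log2 changes ran from -0.59 for Dhx58 to -0.18 for Ddx58. Dhx58 and Zbp1 (-0.52) had groups that did not overlap. Eif2ak2 stood at 13.3, 5.89 and 12.6 FPKM in wild type and 5.31, 8.83 and 11.3 in the knockout, so its lowest wild-type value belonged to wild-type replicate 2 and its lowest knockout value to knockout replicate 1.

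Of the other 11 type I genes 10 were tested and 3 fell. Ifi27l2a (ENSMUSG00000079017, chromosome 12 from 103442167 to 103443680, mm10), a small mitochondrial or membrane protein of the Ifi27 family, stood at 107, 87.2 and 104 FPKM in wild type and at 26.6, 20.1 and 26.8 in the knockout. Both groups were tight and lay far apart. The means were 99.5 ± 10.7 and 24.5 ± 3.82 FPKM (SD, n = 3), a 4.06-fold lower level (log2 change -1.98 with SE 0.161, limma adjusted p = 0.00574), from 162 to 1019 reads per library. Rtp4, a chaperone of receptors and a regulator of interferon responses, stood at 13.0, 10.1 and 14.2 FPKM in wild type and at 3.45, 2.61 and 5.61 in the knockout. Its groups did not overlap (log2 change -1.49, limma adjusted p = 0.0234). The Rtp4 call was lost without wild-type replicate 1 (limma adjusted p = 0.0931), wild-type replicate 3 (0.0623), knockout replicate 1 (0.0710) or knockout replicate 2 (0.0780). Lgals3bp, a secreted glycoprotein that binds galectins, stood at 37.8, 28.0 and 37.1 FPKM in wild type and at 21.2, 17.5 and 21.7 in the knockout. It passed narrowly (log2 change -0.73, limma adjusted p = 0.0491). That call held without wild-type replicate 2 but not without wild-type replicate 1 or 3 (limma adjusted p = 0.152 and 0.130) or knockout replicate 1, 2 or 3 (0.105, 0.183 and 0.107).

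The remaining genes of this group did not pass. Xaf1, which promotes cell death, stood at 4.34, 3.51 and 4.56 FPKM in wild type and at 2.33, 1.97 and 2.99 in the knockout without overlap (log2 change -0.59, limma adjusted p = 0.0808). Rsad2 (viperin), which makes a chain-terminating nucleotide, and its neighbour Cmpk2, which supplies the precursor, were abundant in both genotypes. Rsad2 went from 81.7 ± 26.5 to 67.1 ± 1.27 FPKM (SD, n = 3), with the spread of wild type set by replicate 3 at 112 FPKM (log2 change -0.24, limma adjusted p = 0.622, and 0.01 without wild-type replicate 3). Cmpk2 went from 23.6 ± 4.05 to 18.2 ± 1.58 FPKM (SD, n = 3) without overlap (log2 change -0.35, limma adjusted p = 0.242). Bst2 (tetherin), which holds budding virus on the cell, had a log2 change of -0.39, Parp14 of -0.46 and Ifi35 of -0.14, which turned to 0.02 without knockout replicate 2. Ifi44 lay under the expression filter, with a mean of 0.793 ± 0.325 FPKM in wild type and 0.403 ± 0.108 in the knockout (SD, n = 3, two-sided exact permutation p = 0.2). Trim30a, a regulator of inflammatory signalling, was the member with a positive change, at 14.8, 12.8 and 16.3 FPKM in wild type and 14.6, 15 and 17.5 in the knockout (log2 change 0.10, limma adjusted p = 0.745, and -0.04 with array weights).

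The interferon-gamma-type genes encode guanylate-binding proteins (Gbp2, Gbp3, Gbp7) and immunity-related GTPases (Ifi47, Igtp, Irgm1), which attack the vacuoles of intracellular microbes. Gbp2 stood at 6.48, 9.23 and 10.3 FPKM in wild type and at 4.05, 3.79 and 4.29 in the knockout. Its groups did not overlap, and it fell 2.14-fold by the means (log2 change -0.92 with SE 0.167, limma adjusted p = 0.0326). The call held without wild-type replicate 1 and was lost without wild-type replicate 2 or 3 (limma adjusted p = 0.0734 and 0.0745) or knockout replicate 1, 2 or 3 (0.0885, 0.128 and 0.0710). Irgm1, a regulator of the other immunity-related GTPases and of autophagy, stood at 10.9, 9.63 and 13.2 FPKM in wild type and at 7.82, 6.66 and 7.53 in the knockout (log2 change -0.55, limma adjusted p = 0.0739). Gbp3 had a log2 change of -0.31 without overlap (limma adjusted p = 0.169). Igtp (-0.31), Gbp7 (-0.25) and Ifi47 (-0.12) had overlapping groups. Ifi47 stood at 25.3, 24.5 and 31.8 FPKM in wild type and at 27.1, 21.3 and 26.3 in the knockout.

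Across 19 alternative settings Ifit3 and Ifi27l2a passed in all 19. Ifit1 passed in 14, Rtp4 in 13, Gbp2 in 11, Usp18 in 8 and Lgals3bp in 6. The number of fallen members was 3, 6 and 3 without wild-type replicates 1, 2 and 3, and 2, 2 and 4 without knockout replicates 1, 2 and 3. Without wild-type replicate 2 and knockout replicate 1 together it was 3, namely Ifit1, Ifit3 and Ifi27l2a.

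**Figure D3:**
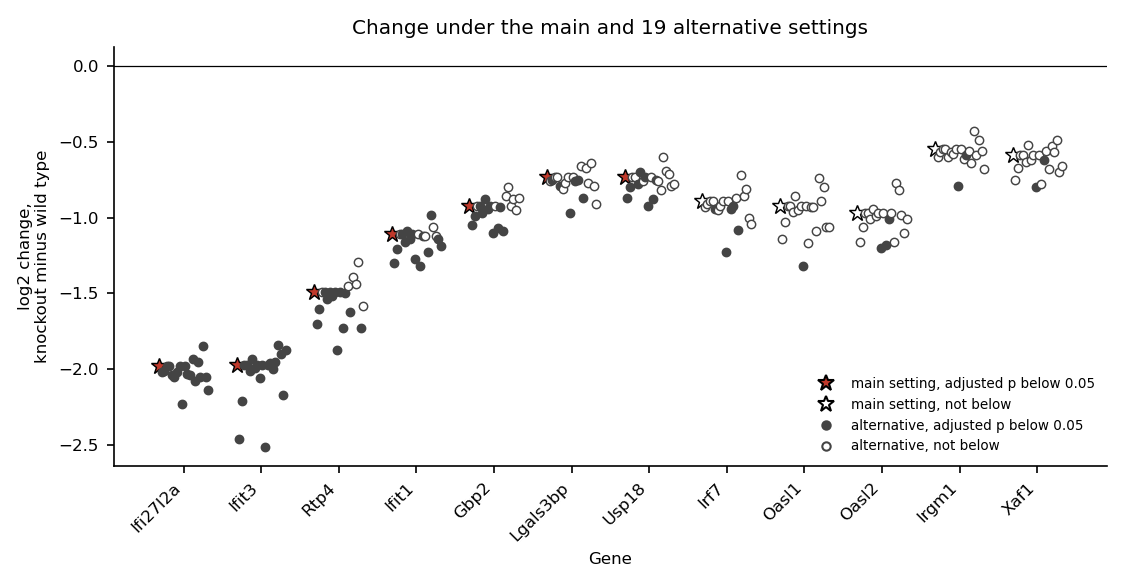
Log2 change of the 12 genes with the smallest p under the main setting (star) and 19 alternative settings (circles), filled where the adjusted p was below 0.05. Ifi27l2a and Ifit3 are filled throughout, between -2.51 and -1.84, and all plotted values lie below 0.

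The libraries of 1 genotype differed in the level of these genes as a whole. Wild-type replicate 3 held the highest wild-type value for 27 of the 37 genes and wild-type replicate 2 the lowest for 32. Knockout replicate 3 held the highest knockout value for 31. The median deviation from the group mean was 0.24 in wild-type replicate 3 and -0.24 in wild-type replicate 2 on the log2 scale, against -0.09 to 0.14 in the knockout libraries. In wild-type replicate 2 and knockout replicate 1 the deviations fell with exon length over the 37 genes (Spearman's rho -0.62 and -0.58, a description over genes that share a library). In the other 4 libraries rho was 0.22 to 0.61. Removing each library's trend with exon length over all genes left 11 fallen members, and the median of the type I genes was then -0.52.

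**Figure D4:**
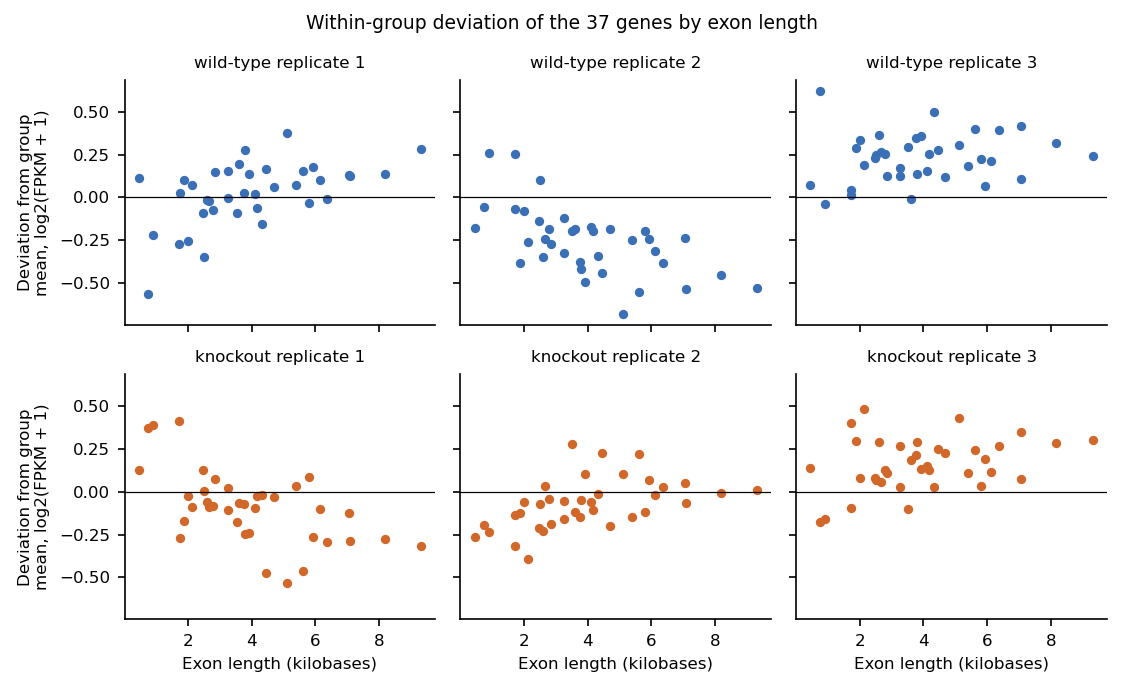
Deviation of each of the 37 genes from its group mean on the log2(FPKM + 1) scale against exon length in kilobases, 1 panel per library. The points slope down in wild-type replicate 2 and knockout replicate 1, and in wild-type replicate 3 most lie above 0.

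The upstream steps of the pathway were measured alongside. Of the 21 interferon ligands 17 were listed at 0 in all libraries, all of the alpha genes among them. A listed 0 need not mean an absent transcript, since Trex1, a widely expressed nuclease that limits interferon induction, was also listed at 0 in all 6, and the alpha genes are near-identical copies. Ifnb1, which encodes interferon beta, had 1 read, in wild-type replicate 3. Ifng, which encodes interferon gamma, stood at 0.112, 0.356 and 0.257 FPKM in wild type and at 0.186, 0 and 0 in the knockout. These read numbers are too low to compare the genotypes at this depth. Of the 45 tested genes for receptors, JAK and STAT proteins, other IRF factors, sensors, adaptors and negative regulators, 0 passed in limma, while 2 were lower and 6 higher at an unadjusted p under 0.05, against 11.7% and 8.91% of all tested genes. With voom on recovered reads 1 was higher.

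The receptors were present in both genotypes. Ifnar1, a receptor chain for type I interferons, stood at 14.4, 11.7 and 14.2 FPKM in wild type and at 13.5, 15.5 and 14.7 in the knockout (log2 change 0.11, limma adjusted p = 0.674). Its partner Ifnar2 was at 18.2 to 21.5 FPKM in wild type and 21.8 to 23.9 in the knockout without overlap (log2 change 0.18, limma adjusted p = 0.434). For interferon gamma, Ifngr1 had a log2 change of 0.22 and Ifngr2 of -0.17, and neither passed. Irf1, an early target of interferon gamma, had a log2 change of -0.21 (limma adjusted p = 0.520).

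**Figure D5:**
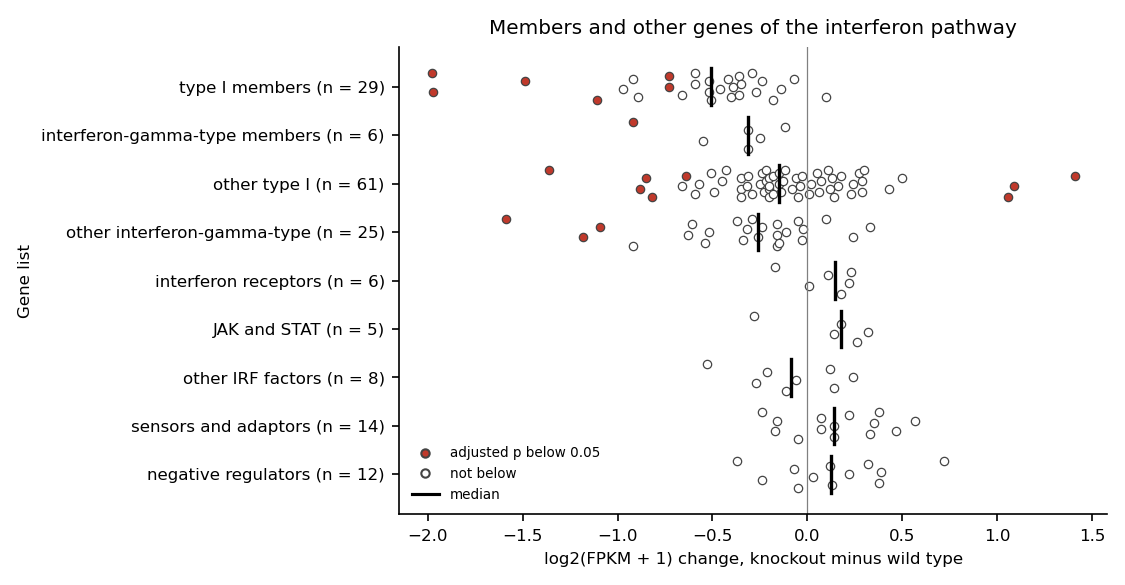
Log2(FPKM + 1) change of tested genes in the members and in other lists of the interferon pathway, 1 point per gene, filled where the limma adjusted p was below 0.05, with the median of each list as a black bar. The medians of the members lie at -0.51 and -0.31, those of the receptors at 0.15 and of the JAK and STAT genes at 0.18.

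Other interferon-stimulated genes, outside the 37, moved in both directions. Of 61 tested type I genes 5 fell (8.2%) and 3 rose (4.92%), with a median of -0.15. Over all tested genes 3.82% fell and 1.34% rose. Those that fell were Ifit3b, Slfn5 (log2 change -0.88), Ifi204, a DNA-binding protein (-0.85), Ifi27 (-0.82) and Epsti1 (-0.64), with Ifi204 and Epsti1 named after their values were seen. Those that rose were Ifitm1, which blocks viral entry, from 16.9, 32.8 and 20.7 FPKM to 71.9, 51.2 and 64.3 (log2 change 1.41, limma adjusted p = 0.0313), Plac8 (1.09) and Slfn4 (1.06), both known from myeloid cells. Of 25 tested interferon-gamma-type genes 3 fell (12%) and 0 rose, with a median of -0.26. The 3 were the chemokines Cxcl9 (log2 change -1.59) and Cxcl10 (-1.09), which draw T cells, and the GTPase Iigp1 (-1.18). Cxcl9 stood at 6.07, 5.28 and 9.13 FPKM in wild type and at 0.980, 1.68 and 2.13 in the knockout (limma adjusted p = 0.0198). Each of these 11 genes lost its call without at least 1 of the 6 libraries, and Ifi27, Epsti1 and Plac8 lost it without any 1 of them. The highest limma adjusted p without 1 library was 0.0766 for Cxcl9 and 0.0842 for Cxcl10, both without knockout replicate 2, and 0.0972 for Ifitm1, without wild-type replicate 1.

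Markers of cells that could carry these genes moved with the genotype in part. Of 12 neutrophil genes 3 rose, namely Mpo, Prtn3 and Ctsg. The summed level of the 12 was 21448 to 40476 FPKM in wild type and 40179 to 51684 in the knockout. Most of that sum came from S100a8 and S100a9, and neither passed (limma adjusted p = 0.373 and 0.624). Of 12 tested monocyte and macrophage genes 2 fell, Csf1r and Cx3cr1, and 3 were lower and 3 higher at an unadjusted p under 0.05 in limma. Among the higher, named after their values were seen, were Ccr2 (log2 change 0.66) and Cd163 (0.91), neither past the threshold. The list had a summed level of 398 to 424 FPKM in wild type and 435 to 530 in the knockout. Its largest part was Ly6c2, at 126 to 166 FPKM in wild type and 184 to 272 in the knockout. The median log2 change of the list was -0.13. Of 6 tested conventional dendritic cell genes 1 fell, Itgax (16.3 to 16.8 and 12.4 to 14.6 FPKM summed). Plasmacytoid dendritic cells are the main producers of type I interferon, and 0 of their 8 tested markers passed, with 2 lower and 2 higher at an unadjusted p under 0.05 in limma. Their summed level was 190 to 364 FPKM in wild type and 130 to 172 in the knockout, with Cox6a2 the largest part in every library. A sum led by 1 gene does not measure the number of these cells. The median log2 change of these markers was 0.05. Siglech, the defining marker of these cells, stood at 6.80 to 10.1 FPKM in wild type and 8.16 to 11.3 in the knockout. Cox6a2 stood at 113 to 300 and 67.1 to 99.9 without overlap, and it did not pass (limma adjusted p = 0.178). Of 7 tested T and NK cell genes and 7 erythroid genes 0 passed, while 2 of 8 B lineage genes fell. Of 6 skeletal muscle genes 1 fell, and 5 were lower at an unadjusted p under 0.05 in limma (11.7% of all tested genes). The summed level of muscle genes was 2680 to 4915 FPKM in wild type and 1358 to 2144 in the knockout. Among bone cells 4 of 9 osteoblast, 5 of 5 tested chondrocyte, 5 of 5 tested adipocyte and 2 of 7 endothelial genes fell, against 3.82% of all tested genes. Of the 7 endothelial genes 6 were lower at an unadjusted p under 0.05 in limma (11.7% of all tested genes). In all 7 the knockout libraries lay below the wild-type libraries (13.7% of all tested genes), and their median log2 change was -0.59. Summed levels in wild type and knockout were 1420 to 2674 and 589 to 1242 FPKM for osteoblasts, 170 to 249 and 7.03 to 24.2 for chondrocytes, 487 to 753 and 62.9 to 138 for adipocytes, and 74.2 to 85.5 and 50.7 to 51.9 for endothelium. No marker of these lists was listed at 0 in all 6 libraries. The part of these cell types in the levels of the 37 genes was not tested.

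Matches to the seed of the deleted microRNAs were searched because many direct targets carry one. Other kinds of site were not searched. The 7 bases that pair with the seed, TGGTGCT, occurred in an annotated 3′ UTR of 2 of the 37 members (5.41%), against 16.3% of the 11667 tested genes with such a UTR. The capitals mark the match in each.
Ddx58: tggttggtttcaagcTGGTGCTgtccacac
Rsad2: gtttggggtttttttTGGTGCTtatattaa
Neither gene passed, with log2 changes of -0.18 and -0.24, and the fallen members held no match to these 7 bases. Among genes reported elsewhere as miR-29 targets in interferon responses, Ifng, Tbx21 and Eomes held a match and Ifnar1 did not. Tbx21, a factor of T and NK cells, had a log2 change of -0.18 (limma adjusted p = 0.517), and Eomes lay under the expression filter.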

How the data were processed

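RNA was measured in 6 bone libraries, 3 wild-type and 3 knockout, built from total RNA with a TruSeq kit per the labels' protocols. The authors deposited FPKM values per gene and library, made with Bowtie 0.12.2 on mm10 per the submitters' processing notes. The sources used here do not name the counting tool, annotation, use of strand or scaling, so reads of overlapping genes and close paralogs cannot be assigned. GENCODE M21 gave symbols, positions and exon lengths for 54495 of 54532 genes. FPKM times exon length gave whole reads (tolerance 0.01) in all libraries for 96.9% of the 29600 genes with a value, which set the divisors. Statements on reads cover counting error only.

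Values were analysed as log2(FPKM + 1), which understates changes of low genes, in R 4.3.3 with limma 3.58.1 (variance trend, Benjamini-Hochberg), after requiring a mean FPKM of at least 1. Genes below it had an exact permutation test, two-sided. Members and lists were chosen with earlier results of these data known. Lists were therefore described by counts and medians without a test. All members are named; library values are given for the 12 with the smallest p and the 3 with the highest change, and for some others chosen after their values were seen. Non-members are named where they passed, up to 6 a list by p, with fixed receptors and factors, of which 1 is not reported here. The limma step was tested on simulated data. Replicates of a group differed beyond sampling noise (chi-square divided by its degrees of freedom, 16.6 to 99.5). Alternatives covered pseudocount, filter, scaling, variance model, weights, replicate block, voom, exon length and left-out libraries. Figures were drawn with matplotlib 3.10.9.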

Additional observations from a re-analysis of the deposited data

How the results depend on the processing

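The direction of the median log2 change held under all 19 alternatives, from -0.64 to -0.37 for type I members and from -0.50 to -0.19 for interferon-gamma-type members, and 0 members rose under any. Counts moved, and the cause was not tested. Fewer libraries or more genes tested tend to lower such counts, but not for every gene. Irf7 passed only once wild-type replicate 2 was left out, among the fits without 1 library (limma adjusted p = 0.0435). Against 7 fallen members (6 type I, 1 interferon-gamma-type) and 703 genes in all, there were 2 (2 and 0) and 143 with no filter, 28 (23 and 5) and 3354 with array weights, 11 (9 and 2) and 1215 with the exon length trend removed, and 3 (3 and 0) and 239 without both libraries that stood apart. Leaving out 1 library gave 2 to 6 members, 2 to 6 type I members, 0 to 1 interferon-gamma-type members and 62 to 418 genes, and interferon-gamma-type medians of -0.45 to -0.19. That median was -0.50 with array weights. Of the pathway genes, 8 rose and 4 fell with array weights, and 1 rose with quantile normalization, voom or the length trend removed. With the replicate block there were 3 members (3 type I, 0 interferon-gamma-type) and 127 genes. Same-numbered libraries did not deviate together (correlations -0.493, -0.270 and 0.158). Wild-type replicate 2 and knockout replicate 1, which share a trend with exon length, did (0.545). Such a shared trend shapes all these correlations, so they cannot show whether the number pairs libraries. Members with under 100 reads in a library, Ifit3, Mx1, Mx2, Oasl1, Ifi44 and Rtp4, rest on the least depth.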
